A study of Mus musculus with 6 samples.

Results

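The Steap genes encode metalloreductases, and in tail keratinocytes of mice labelled as epidermal Gpr161 knockouts a pair of the family's 4 members, Steap3 and Steap4, stood above the control in every library while Steap2 did not separate and Steap1 had few counts and overlapped. The rows were taken by symbol: Steap1, Steap2, Steap3, Steap4 and, as iron transport context, Tfrc, Slc11a2 and Slc40a1. That is 7 of the 19618 genes in the table, and all 7 were among the 15422 genes that passed the filter on low counts. They were chosen by a comparison of the same knockout and control libraries, so their differences are given as a description, without p-values, and nothing else rests on them.

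The cells were keratinocytes of tail skin, taken at 4 months of age, and polyA RNA was sequenced from 3 libraries per group. Knockout mice were labelled K14cre+/ Gpr161Flox-Homozygous: Cre recombinase driven by a keratin 14 promoter, which is active in basal keratinocytes and follicle epithelium, acts on both floxed copies of Gpr161, a ciliary receptor known to restrain Hedgehog signalling. Control mice had no Cre in their labels, but all carried the floxed allele, 1 as Gpr161Flox-Homozygous and 2 as Gpr161Flox-Heterozygous. Columns name the group and a tag but no sample title, so libraries are called by tag (knockout DE679, DE685 and DE688, control DE680, DE684 and DE689), and which control was the homozygous one was not used. The labels do not say whether animals were pooled, and p-values measure only the spread between these samples, which may be technical in part.

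Cells take up most of their iron as ferric iron bound to transferrin. The transferrin receptor, encoded by Tfrc, carries it into endosomes, where a Steap reductase passes electrons from NADPH through a heme group to make ferrous iron. The ferrous iron leaves through the carrier DMT1, encoded by Slc11a2, and surplus iron is stored in ferritin or exported by ferroportin, encoded by Slc40a1. Steap3 is best known as the reductase of the transferrin endosome in red cell precursors, and Steap4 as a reductase of iron and copper that responds to inflammatory and nutrient signals in fat and other tissues. Steap1 lacks the NADPH-binding domain of the others, and its coding sequence was the shortest in the annotation at 1017 bases, against 1410 for Steap4, 1467 for Steap2 and 1578 for Steap3. Aligned coding sequences shared 57.6% to 62.1% of bases over the 6 pairs of Steap genes, with 57.6% between Steap3 and Steap4.

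In GRCm38 with the GENCODE M21 annotation, Steap4 lies on the plus strand at chr5:7960457-7982213. Steap1 (chr5:5736317-5749326) and Steap2 (chr5:5664829-5694578) lie on the minus strand of the same chromosome, and Steap3 on the minus strand at chr1:120190757-120272705. The context genes are Tfrc (chr16:32608920-32632794, plus), Slc11a2 (chr15:100387898-100425072, minus) and Slc40a1 (chr1:45908068-45926523, minus). All 7 are protein-coding, and no exon of the Steap genes, Tfrc or Slc40a1 overlaps an exon of another gene. Exons of Slc11a2 overlap Gm5475 on the opposite strand, and whether counting used the strand of reads is not given in the sources used here, so the Slc11a2 values are uncertain to that extent.

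Promoters are shown for Steap3 and Steap4, the 2 genes of the family whose levels stood apart by genotype. RefSeq start sites (GRCm38.p6) matched 5 of the 7 genes, Steap1 to Steap4 and Tfrc, with 11 windows in all. The 250 bases before the single Steap4 start (chr5:7960222-7960471, plus strand) and before 1 of the 4 Steap3 starts (chr1:120270271-120270520, minus strand) read as follows, with capitals marking the kappa-B letters GGGATTCCC on either strand and, in Steap4, the STAT letters TTCNNNGAA.
Steap4: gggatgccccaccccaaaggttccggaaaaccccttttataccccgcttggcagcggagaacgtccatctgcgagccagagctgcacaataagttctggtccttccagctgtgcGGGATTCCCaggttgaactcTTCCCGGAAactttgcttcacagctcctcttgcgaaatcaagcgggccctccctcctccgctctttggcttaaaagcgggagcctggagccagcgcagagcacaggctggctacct
Steap3: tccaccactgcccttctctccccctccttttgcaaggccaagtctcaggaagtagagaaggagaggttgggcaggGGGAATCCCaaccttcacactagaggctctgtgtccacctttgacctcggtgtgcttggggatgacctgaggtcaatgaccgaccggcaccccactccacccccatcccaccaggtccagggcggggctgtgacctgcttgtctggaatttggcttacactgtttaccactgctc

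The kappa-B letters were found in windows of Steap3 and Steap4 and in 0.353% of 32851 promoter windows of 300 bases, and the STAT letters in windows of Steap2 and Steap4 and in 8.30% of all windows. These 2 motifs were chosen after the Steap4 sequence had been read, and the Steap3 match lies before only 1 of its 4 starts. The Gli letters GACCACCCA, the cAMP response element TGACGTCA and the E-box CACGTG, searched on both strands, were in 0 of the 11 windows, against 0.253%, 1.79% and 7.15% of all windows. A match describes letters in a window and no more.

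Depth ran from 17157864 estimated counts in DE685 to 25344399 in DE689. Levels are in CPM, counts scaled to library size with factors from the trimmed mean of M values (TMM). By library total alone, without those factors, 3 counts equal 0.118 to 0.175 CPM, a floor that covers counting error only. In the edgeR quasi-likelihood test, 1.6% of tested genes had a Benjamini-Hochberg adjusted p under 0.05, 1.24% higher and 0.357% lower in the knockout, and the median log2 fold change over all genes was −0.0036. An unadjusted p under 0.05 in edgeR was found for 2931 of the 15422 genes, far more than passed. The DESeq2 test, used as an alternative, called 872 of 14816 genes. Keratinocyte markers were present, 10 of 10, with summed levels of 45100 to 54237 CPM in knockout and 42805 to 60766 CPM in control libraries. Gpr161 itself stood at 28.8 ± 4.23 CPM against 31.4 ± 1.10 CPM in controls (SD, 3 libraries each; log2 −0.13, SE 0.11, edgeR adjusted p 0.553), so whole-gene counts do not check the labels, and each direction is that of libraries labelled knockout. Gli1, a direct Hedgehog target, was 7.59-fold higher (SE 0.10 on the log2 scale, edgeR adjusted p 1.77e-05). DE685 and DE684 carried Y-linked transcripts, 1 library in each group.

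Steap4 had the highest level and the largest rise of the family. The knockout libraries held 116 (DE679), 101 (DE685) and 115 CPM (DE688), the controls 37.0 (DE680), 36.9 (DE684) and 27.7 CPM (DE689). The lowest knockout library was thus far above the highest control library, with DE685 the lowest of the knockouts and DE689 the lowest of the controls. Means were 110.4 ± 8.57 and 33.9 ± 5.36 CPM (SD, n = 3 each), a 3.26-fold difference (log2 1.71, SE 0.12). By size of rise Steap4 stood at place 105 of 15422 genes, and by mean level over all libraries it lay at percentile 79.4. In these bulk samples, more cells of a type and more RNA per cell cannot be told apart.

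Steap3, the endosomal ferrireductase, was lower in level and showed the same separation. DE679, DE685 and DE688 had 13.3, 12.1 and 13.6 CPM, and the controls DE680, DE684 and DE689 had 4.39, 5.44 and 5.47 CPM. Each group was tight and the groups did not come near each other. Means were 13.02 ± 0.785 and 5.10 ± 0.615 CPM (SD, n = 3 each), 2.55-fold apart (log2 1.35, SE 0.14), which put Steap3 at place 175 by size of rise and at percentile 35.8 by level. Behind these values stand 210 to 350 estimated counts per knockout library and 99 to 138 per control library.

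Steap2, a reductase with the same domains, did not separate by genotype. Knockout values were 12.3 (DE679), 14.2 (DE685) and 10.9 CPM (DE688), control values 12.4 (DE680), 14.7 (DE684) and 9.32 CPM (DE689). The knockout range lay inside the control range, and the highest value in each group came from the library with Y-linked transcripts, whose part in the values was not tested. Means were 12.5 ± 1.67 and 12.2 ± 2.72 CPM (SD, n = 3 each), 0.03 apart on the log2 scale (SE 0.18). Leaving out DE684 gave 0.19 and leaving out DE689 gave −0.13, so no direction can be given.

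Steap1, the member without the NADPH-binding domain, had few counts. Knockout libraries held 14 (DE679), 3 (DE685) and 8 (DE688) estimated counts, and control libraries 17 (DE680), 37 (DE684) and 6 (DE689). As levels these are 0.173 to 0.594 CPM against 0.238 to 1.62 CPM, so the groups overlapped and DE684 alone set the control mean apart. The log2 fold change of −1.22 (SE 0.72) became −0.41 without DE684. The groups cannot be told apart within this spread between libraries.

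**Figure D1:**
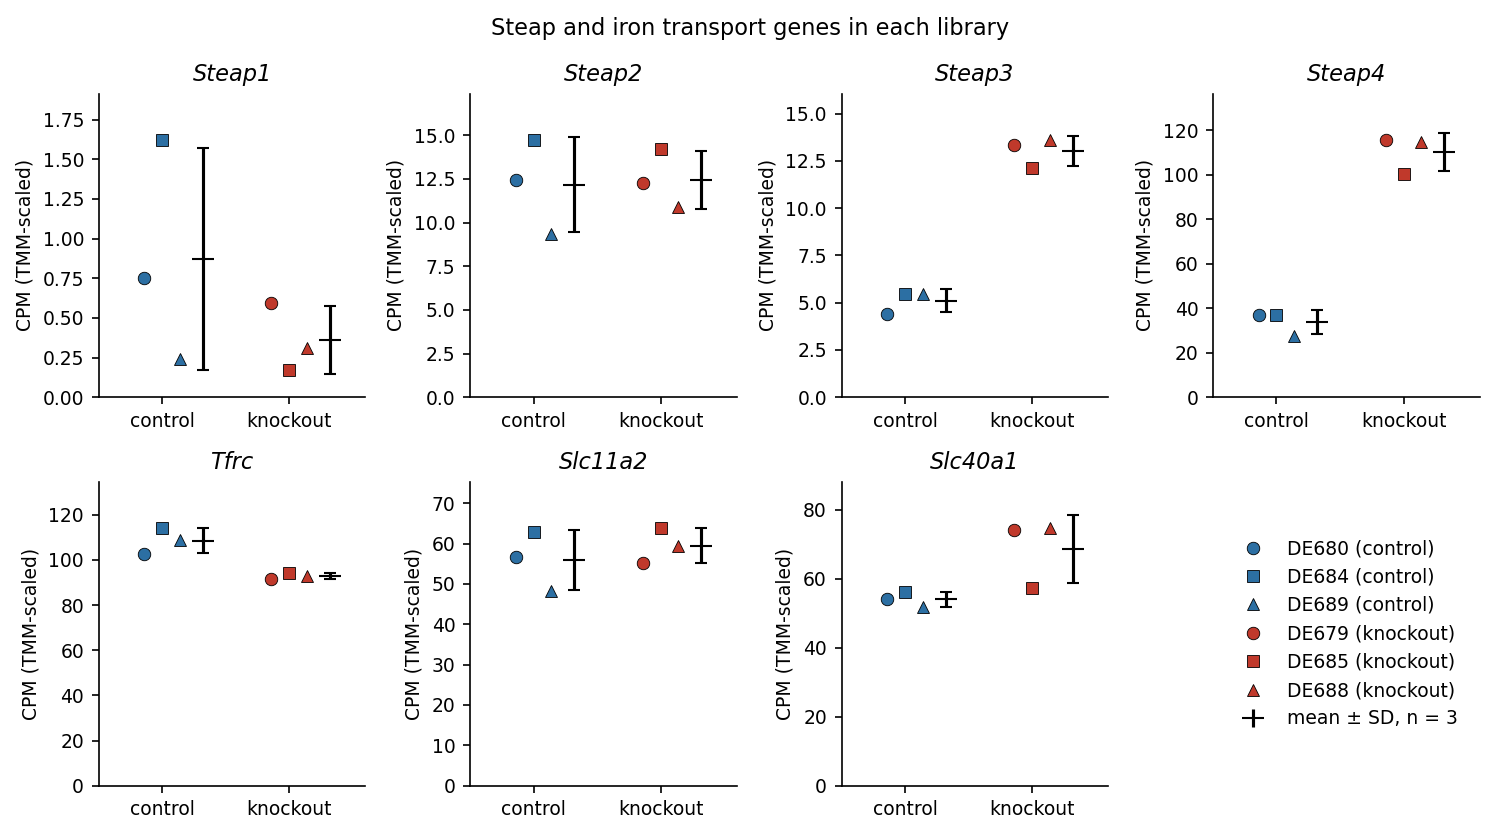
TMM-scaled CPM of each of the 7 genes, 1 point per library by group (symbols name the libraries), with the group mean ± SD (n = 3) beside the points and each axis starting at 0. Steap3 and Steap4 separate by genotype, at 12.1 to 13.6 against 4.39 to 5.47 CPM and 101 to 116 against 27.7 to 37.0 CPM, whereas Steap1, Steap2 and Slc11a2 overlap.

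Tfrc, the transferrin receptor and the entry point of the pathway, was slightly lower in the knockout. Levels were 91.6, 94.0 and 93.1 CPM for DE679, DE685 and DE688 and 103, 114 and 109 CPM for DE680, DE684 and DE689. All 3 knockout libraries lay below all 3 controls, and they spanned less than the controls did. Means were 92.9 ± 1.21 and 108.5 ± 5.62 CPM (SD, n = 3 each), −0.22 on the log2 scale (SE 0.06).

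Slc11a2, which carries ferrous iron out of the endosome, overlapped between groups. Its values were 55.3, 63.8 and 59.4 CPM in DE679, DE685 and DE688, and 56.6, 63.0 and 48.3 CPM in DE680, DE684 and DE689. The lowest value was that of the control DE689. The log2 fold change was 0.09 (SE 0.10), and without DE689 it was −0.0055.

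Slc40a1, the iron exporter ferroportin, was somewhat higher in the knockout. DE679 and DE688 had 74.0 and 74.6 CPM, DE685 had 57.2, and the controls had 54.1 (DE680), 56.0 (DE684) and 51.8 (DE689). The groups did not overlap, but DE685 sat just above the controls and well below the other knockouts. Means were 68.6 ± 9.86 and 54.0 ± 2.09 CPM (SD, n = 3 each), 0.35 apart on the log2 scale (SE 0.11), which became 0.46 without DE685.

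In the fit over all genes 2 of these 7, Steap3 and Steap4, passed the 0.05 threshold on the adjusted p, where 1.6% of all tested genes did. The groups did not overlap for 4, of which Steap3, Steap4 and Slc40a1 were higher and Tfrc was lower. Over all tested genes the groups did not overlap for 25.6%, with 12.8% higher and 12.8% lower. Since the same contrast chose the 7 genes, nothing is read from these counts.

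**Figure D2:**
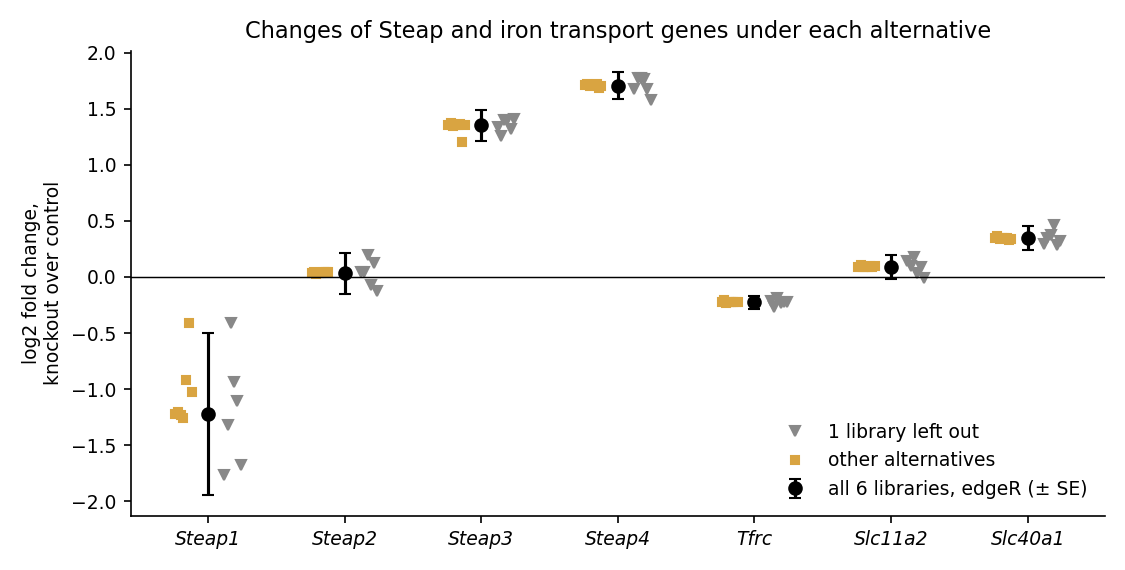
Log2 fold change of knockout over control for each gene, with all 6 libraries (black, edgeR estimate ± SE), with 1 library left out (grey triangles) and under the other alternatives (yellow squares). Steap4 stays between 1.58 and 1.77 and Steap3 between 1.20 and 1.41, Steap2 and Slc11a2 lie on both sides of 0, and Steap1 ranges from −1.77 to −0.41.

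Levels of different genes were compared as CPM per kilobase of exon, using the union of all annotated exons. In control libraries the order was Tfrc at 17.5 ± 0.908, Steap4 at 10.7 ± 1.70, Slc11a2 at 8.80 ± 1.16, Slc40a1 at 6.00 ± 0.232, Steap2 at 1.00 ± 0.224, Steap3 at 0.893 ± 0.108 and Steap1 at 0.633 ± 0.508 CPM per kilobase (SD, n = 3 each). Steap4 and Slc11a2 overlapped in range, as did Steap2 with Steap3 and Steap3 with Steap1, so those neighbours in the order do not differ beyond their spread. In the knockout Steap4 headed the order at 35.0 ± 2.72 CPM per kilobase, above Tfrc at 15.02 ± 0.196, and Steap3 at 2.28 ± 0.137 stood above Steap2 at 1.03 ± 0.137. The length used matters for the context genes. With the longest transcript as length, the control level of Slc40a1 was 13.7 in place of 6.00, Slc11a2 12.7 and Tfrc 22.2, and Steap4, which has 1 annotated transcript, then ranked below all 3.

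**Figure D3:**
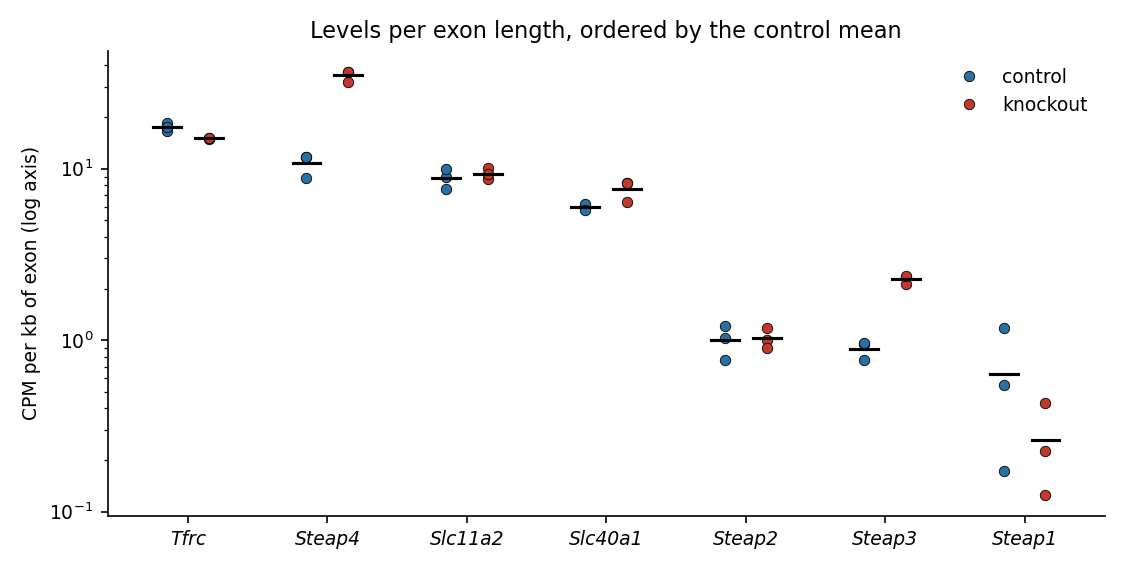
CPM per kilobase of exon (log axis) in each library, control in blue and knockout in red, with black bars for group means (n = 3), ordered by control mean. In the knockout Steap4 lies above Tfrc, at 35.0 against 15.02 CPM per kilobase, and Steap3 above Steap2, at 2.28 against 1.03. Steap2 and Steap3 overlap in the control.

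Steap4 made up most of the family's transcripts per length in both groups. The summed level of the 4 Steap genes was 35.3 to 40.5 CPM per kilobase in knockout and 10.7 to 15.04 in control libraries. Steap4 held 90.3% to 91.2% of that sum in the knockout and 77.8% to 83.4% in the control. The share of Steap3 was 5.76% to 6.01% in the knockout and 5.46% to 8.97% in the control, so it overlapped although the level of Steap3 was higher. Steap2 held 2.24% to 3.32% against 7.19% to 8.07%.

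After the group means were subtracted, Steap3 with Steap4 had a Pearson r of −0.23 over the 6 libraries. The r was 0.85 for Steap1 with Steap4, 0.69 for Steap1 with Steap2 and 0.53 for Steap2 with Steap4. Steap1 with Steap3 had r 0.11, Steap2 with Steap3 −0.35, and Steap2 with Slc11a2 0.89. Among 13664 or 13665 genes of at least 1 CPM, those most alike were Aldh1a3, Rpl28 and Glrx for Steap4 (r 0.999, 0.998 and 0.997), Ccng2, Zfp236 and Gm17491 for Steap3 (0.998, 0.996 and 0.993), Gys1, H2aw and Idh2 for Steap2 (0.999, 0.997 and 0.995) and Nagpa, Magt1 and Pck2 for Steap1 (0.998, 0.997 and 0.996). These are descriptions over 6 points that share library and depth. So few points, with group means subtracted, cannot show whether genes vary together. The genes most alike have the highest r out of all those compared, and Steap1 had few counts.

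Genes around Steap4 and Steap3 were also read. Within 1 Mb on either side of Steap4, 7 other genes were tested and their log2 fold changes ran from −0.66 to 0.23. None passed in the edgeR test, 0 had an unadjusted p under 0.05, and DESeq2 and limma-voom called 0. Within 1 Mb of Steap3, 8 other genes ran from −0.52 to 0.04. There edgeR called 0, with 3 at an unadjusted p under 0.05, limma-voom called 0 and DESeq2 called 1, Dbi. Within 1 Mb of Steap1, 7 other genes, Steap2 among them, ran from −0.32 to 1.86. Of these 1 passed in the edgeR test, where 1.6% of all tested genes did. It was the Wnt receptor gene Fzd1, which rose by 0.59 (SE 0.11, edgeR adjusted p 0.041). In edgeR 2 of the 7 had an unadjusted p under 0.05, DESeq2 called 1, Fzd1, and limma-voom called 1. The window of Steap2, with Steap1 among its 7 other genes, held the same Fzd1 call. Fzd1 and Dbi are named after their values were seen.

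Many iron genes are also controlled after transcription, through the iron-responsive element, a hairpin bound by the iron regulatory proteins that Aco1 and Ireb2 encode. In the 5′ UTR it holds back translation when iron is scarce, as in ferritin and ferroportin transcripts, and in the 3′ UTR of Tfrc it protects the transcript. A hairpin of this form (a C, then 5 bases, the loop CAGTGN, then 5 bases that pair with the first 5, G-T pairs allowed) was searched for in the sense strand of annotated protein-coding transcripts. It was found in UTRs of 0.731% of 21877 genes, in Slc40a1, Tfrc and both ferritin genes. No transcript of the 4 Steap genes or of Slc11a2 held a match. The search missed any element with an unpaired base in these 5 pairs or with another loop. Absence of a match, in Slc11a2 or elsewhere, thus does not show absence of an iron-responsive element. The matches are shown because they divide the 7 genes into those with and without these letters, and capitals mark the loop (GRCm38). They lie at chr1:45925471-45925487 (Slc40a1, 5′ UTR, minus strand), chr19:9982738-9982754 (Fth1, 5′ UTR, plus), chr7:45459785-45459801 (Ftl1, 5′ UTR, minus) and, for Tfrc in the 3′ UTR on the plus strand, chr16:32631225-32631241, chr16:32631604-32631620, chr16:32631669-32631685 and chr16:32631716-32631732 (A to D, in that order).
Slc40a1: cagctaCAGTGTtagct
Fth1: cttcaaCAGTGCttgaa
Ftl1: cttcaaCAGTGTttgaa
Tfrc A: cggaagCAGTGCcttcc
Tfrc B: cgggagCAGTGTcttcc
Tfrc C: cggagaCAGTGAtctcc
Tfrc D: cgggaaCAGTGTttccc

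Other genes of metal handling were followed in 6 lists of 82 genes, 76 of them tested. In the edgeR test 3 passed, Fth1 and Slc39a8 higher and Mt1 lower, which is 3.95% of the 76 against 1.6% of all tested genes. The median log2 fold change of the 76 was −0.0093, and 47.4% were above 0, against 49.3% of all tested genes. None of the 3 passed in any of the 6 fits that left out 1 library, each with the same direction, so these calls need all 6 libraries.

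In the list of iron uptake, storage and export, 2 of 16 genes tested passed, both higher, 12 were above 0, and the median was 0.13. Fth1, the ferritin heavy chain, had 590, 591 and 566 CPM in DE679, DE685 and DE688 and 462, 446 and 442 CPM in DE680, DE684 and DE689. The groups were well apart, and Fth1 rose by 0.37 (SE 0.06, edgeR adjusted p 0.0234). Ftl1, the ferritin light chain, had 234, 239 and 258 against 194, 203 and 196 CPM in the same order, without overlap (log2 fold change 0.30, SE 0.06, edgeR adjusted p 0.0563), and it passed in 3 alternatives, DESeq2, limma on the authors' values and the sex covariate. Slc39a8, an importer of divalent metals, rose by 0.77 (SE 0.14, edgeR adjusted p 0.0466), from 6.39 ± 0.911 to 10.9 ± 0.591 CPM (SD, n = 3 each). Its relative Slc39a14 was 0.38 apart on the log2 scale (SE 0.11, edgeR adjusted p 0.142).

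In the list of copper transport and metallothioneins 1 gene passed, and it was lower. Mt1, a metallothionein that binds zinc and copper, had 158, 144 and 175 CPM in DE679, DE685 and DE688 and 219, 206 and 224 CPM in DE680, DE684 and DE689. It fell by 0.44 on the log2 scale (SE 0.08, edgeR adjusted p 0.0427). Mt2 had 262 ± 17.2 against 333 ± 16.5 CPM (SD, n = 3 each; log2 fold change −0.35, SE 0.07, edgeR adjusted p 0.0610), and the DESeq2 test called Mt1, Mt2 and Mt4, where Mt4 was picked for naming from its result. DESeq2 called more genes in general, 872 of 14816 against 247 of 15422 in edgeR. Slc31a1, the copper importer, spanned 125 to 127 CPM against 142 to 172 CPM (log2 −0.28, SE 0.08, edgeR adjusted p 0.132). Of 13 genes tested 3 were above 0 and the median was −0.06.

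Over all 15422 tested genes, 2931 had an unadjusted p under 0.05 in edgeR. In the remaining lists edgeR called 0 genes. These were the other metalloreductases (6 tested, median 0.17, 1 at an unadjusted p under 0.05), iron sensing and its regulators (10 tested, −0.02, 3), heme handling (17 tested, −0.02, 2) and iron-sulfur cluster assembly (14 tested, −0.06, 0), and DESeq2 and limma-voom also called 0 in each. Cybrd1, the duodenal ferrireductase, had a low level, 0.945 ± 0.356 CPM against 0.722 ± 0.333 CPM in controls (SD, 3 libraries each; log2 0.39, SE 0.48, edgeR adjusted p 0.689). Aco1 had 120.1 ± 3.51 and 120.9 ± 4.94 CPM (log2 −0.0089, SE 0.06, edgeR adjusted p 0.950), and the sign flipped under upper-quartile scaling and without DE680, DE685 or DE689. Ireb2 stood at log2 −0.09 (SE 0.09, edgeR adjusted p 0.607).

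**Figure D4:**
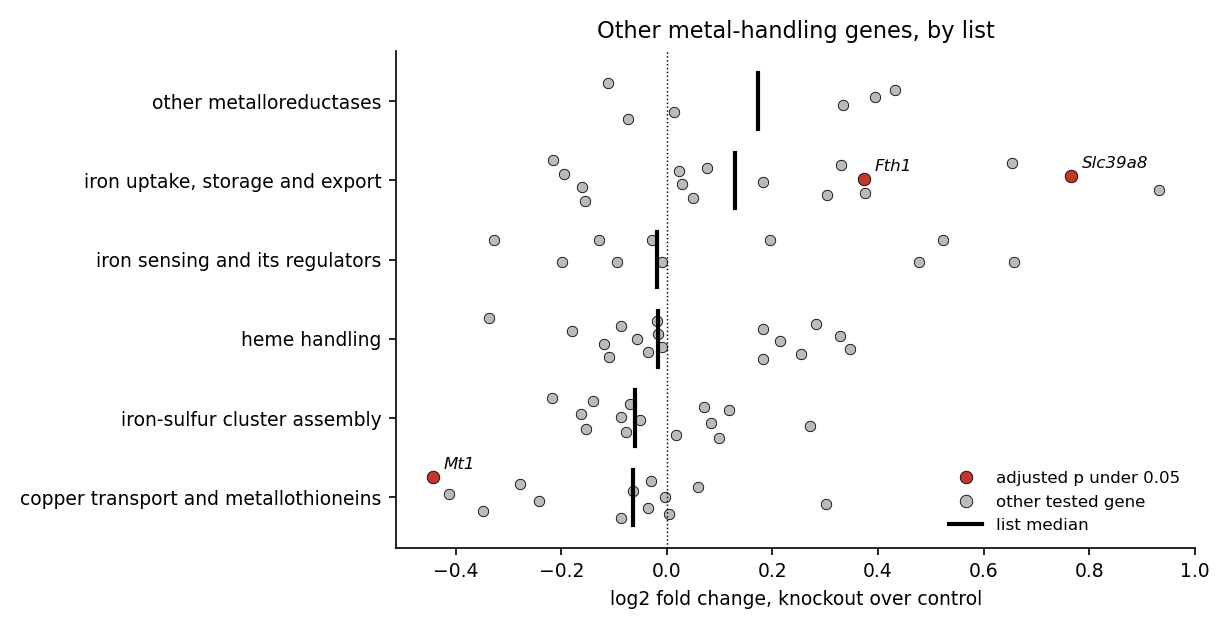
Log2 fold change of knockout over control for the 76 tested genes of the 6 metal-handling lists, 1 point per gene, red where the edgeR adjusted p was under 0.05, with a black bar at each list's median. Fth1 and Slc39a8 lie to the right and Mt1 to the left, and the list medians lie between −0.06 and 0.17.

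Of the Hedgehog targets, Ptch1, the receptor gene, rose by 1.58 (SE 0.13, edgeR adjusted p 0.00228) and Gli2 by 1.79 (SE 0.15, edgeR adjusted p 0.00259).

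Within the keratinocyte markers, Krt5, Krt15 and Trp63, genes of basal cells, had higher values in all 3 knockout libraries than in any control, at log2 fold changes of 0.21, 0.38 and 0.23. Lor, a gene of the cornified layer, was lower without overlap (−0.29), and Krt10, a gene of differentiating cells, overlapped (−0.34). Krt14 (0.03), Col17a1 (0.07), Dsg3 (0.15), Krt1 (−0.25) and Ivl (−0.33) overlapped as well, so not all basal genes of the list separated. Thus 3 of the 10 were higher and 1 lower without overlap, against 12.8% higher and 12.8% lower over all tested genes. In edgeR 0 of the 10 passed, with 3 at an unadjusted p under 0.05, against 2931 of all 15422 tested genes. Limma-voom called 0 and DESeq2 called 2, Krt15 and Trp63, where DESeq2 called 872 of 14816 genes. The markers were set out in this way after their values had been seen, and the part of this in the Steap3 and Steap4 values was not tested.

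Markers of other cell types that tail skin could hold were read beside the Steap3 and Steap4 differences. Summed fibroblast markers, 8 of 8 listed, were higher in the knockout at 129 to 143 CPM against 37.8 to 79.8 CPM, and Dcn was the 1 marker called (log2 1.90, edgeR adjusted p 0.00782). Without Dcn the 7 others summed to 15.3 to 19.3 CPM against 12.8 to 39.2 CPM and overlapped. Summed endothelial markers, 8 of 8 listed, were lower at 4.16 to 5.95 against 6.39 to 9.91 CPM, with 0 of 7 tested called by edgeR (2 at an unadjusted p under 0.05), DESeq2 or limma-voom. In log2 fold change 0 of the 7 were above 0, and 3 were lower without overlap, against 12.8% lower over all tested genes. The part of these cells in the result was not tested.

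Erythroid and adipocyte markers bear on Steap3 and Steap4 because those cells are known for them. Erythroid markers, 8 of 10 used here and Gata1 not among them, summed to 4.26 to 18.5 CPM against 3.14 to 5.41 CPM. All 4 tested were above 0 in log2 fold change, and edgeR, DESeq2 and limma-voom called 0, with 1 at an unadjusted p under 0.05 in edgeR. Adipocyte markers, 4 of 8 listed and without Adipoq, Retn, Car3 and Cfd, summed to 1.53 to 3.23 against 1.42 to 5.24 CPM. Both sums overlapped between groups, and their part in the Steap3 and Steap4 values was not tested. Summed macrophage, neutrophil, Langerhans and T cell, melanocyte, sebaceous gland and skeletal muscle markers also overlapped. The neutrophil sum held only 2 of 8 listed markers, and the muscle sum 5 of 8, of which 2 were tested. Of the 2 neutrophil and 5 tested macrophage markers, 1 each was lower without overlap, against 12.8% lower over all tested genes. Langerhans and T cell markers ranged from 95.4 to 177 against 46.1 to 130 CPM and melanocyte markers from 87.8 to 128 against 61.0 to 88.3 CPM. All 7 tested markers of the former list and all 8 of the latter were above 0 in log2 fold change. Of these, 1 and 3 were higher without overlap, against 12.8% higher over all tested genes. For both lists edgeR and limma-voom called 0, with 1 and 3 markers at an unadjusted p under 0.05 in edgeR. DESeq2 called Thy1 in the former and Pmel in the latter. The part of these cells was not tested either.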

How the data were processed

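The authors deposited estimated counts per gene, not all whole, and a normalized signal in which each value equals the estimated count times a constant of its library plus 0.001. Per the submitters' processing notes, bcl2fastq 2.20, cutadapt 1.18, STAR 2.7.0f, Partek and the build mm10 were used, with no roles given. Sorted, duplicate-marked alignments are named per the file headers, and the counting tool, strand use and annotation are not given in the sources used here. Estimated counts were rounded, filtered with filterByExpr, scaled with TMM and fitted over all genes with glmQLFit and glmQLFTest of edgeR 4.0.16, on genotype alone. Adjusted p-values are Benjamini-Hochberg values over 15422 genes, called under 0.05. The standard error is the log2 fold change over the root of its F. The design had assumed raw counts. With 3 against 3 libraries the smallest exact permutation p (two-sided) is 0.1, so no such test was used.

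Exon lengths and coordinates came from GENCODE M21, which matched 19104 of 19618 symbols, and for 18896 the start and end equalled those in the table. Likeness used log2(CPM + 0.5). The fit was checked on simulated data, where edgeR called 56% of 50 genes raised 2-fold and 86% of 50 raised 4-fold. Of genes lowered to 0.5 or 0.25 of their level, 48 each, it called 52.1% and 83.3%. A gene that was not called may thus still differ. Alternatives used DESeq2 1.42.0 and limma 3.58.1, other scaling and filters, a sex covariate read from Xist and Y-linked genes, and each library left out. The 7 genes, lists and rules were chosen with earlier results of these data known. Named were the 7 genes, Gpr161, Gli1, Cybrd1, Fth1, Ftl1, Slc39a14, Aco1, Ireb2, Slc31a1, Mt1 and Mt2, up to 4 called genes per list, and the 3 genes most alike to each Steap gene. Some results of the Hedgehog and marker lists are not reported here.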

Additional observations from a re-analysis of the deposited data

How the results depend on the processing

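Steap3 and Steap4 kept their direction in all 14 alternatives, and the number of the 7 genes past the threshold was 2 to 2 with 1 library left out, from which nothing is read since this contrast chose them. Leaving out 1 library gave 1.25 to 1.41 for Steap3, 1.58 to 1.77 for Steap4, −0.26 to −0.19 for Tfrc, 0.28 to 0.46 for Slc40a1, −0.13 to 0.19 for Steap2, −0.0055 to 0.18 for Slc11a2 and −1.77 to −0.41 for Steap1. Limma on the authors' values gave 1.20 for Steap3 and −0.41 for Steap1; its offset of 1 shrinks low genes by construction. The count over all genes was 247, against 872 (565 higher and 307 lower) with DESeq2 and 409 (299 and 110) with the sex covariate. With 1 library left out it was 69 (without DE688) to 121 (without DE684). Those fits have fewer samples, and the part of this in the lower counts was not tested. Higher genes made up 77.7% of the calls, 64.8% with DESeq2 and 79.8% (without DE680) to 96.7% (without DE679) with 1 library left out. The 6 metal lists had 3 calls, 6 with DESeq2 and 6 with the sex covariate. Iron uptake, storage and export had 2, 1 with no filter. Copper transport and metallothioneins had 1, 0 with upper-quartile factors, 3 with DESeq2 and 3 with the sex covariate. All 3 groups had 0 to 0 with a library left out. The cause was not tested. Mt1 had an adjusted p of 0.0545 with upper-quartile factors (range over 14 alternatives 9.17e-05 to 0.168) and Slc39a8 0.0609 with no filter (0.00154 to 0.157). Aco1 moved from −0.0089 to 0.0093 with upper-quartile factors, and ran from −0.044 to 0.012 with a library left out. No paired analysis was possible because the column names hold tags in place of the title numbers. A minimum of 1 CPM removed Steap1 and Cybrd1, which have few counts.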

Other observations

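Steap3 and Gli2 lie 1.14 Mb apart on chromosome 1, and both were higher in the knockout, at 2.55-fold and 3.46-fold. The 8 tested genes between them, Inhbb, Ralb, Tmem185b, Epb41l5, Ptpn4, Tmem177, Dbi and 3110009E18Rik, had log2 fold changes from −0.52 to 0.04 with a median of −0.07. Their number, median, range and calls equal those of the genes read above around Steap3, so this is not a separate observation. In edgeR none of the 8 passed, 3 had an unadjusted p under 0.05, DESeq2 called 1 (Dbi) and limma-voom 0. On chromosome 5, Steap1 and Steap2 lie 0.0417 Mb apart with no tested gene between them, and Steap4 lies 2.21 Mb from Steap1 with a single tested gene, Gm15459 (log2 fold change 1.86, not called), between them. The 3 Steap genes of that stretch thus had log2 fold changes of −1.22 (Steap1), 0.03 (Steap2) and 1.71 (Steap4). These intervals were picked after the values had been seen, and no test was made of them.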
